A study of Mus musculus with 4 samples.

Results

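In the P21 mouse brain, 946 distinct transcripts had 200 or more ribosome footprint counts in region b and 10 or more in region c. In 634 of these, region c held more counts than region d. These 634 regions are described here as readthrough candidates. They were chosen from the counts themselves: counts were summed over the 4 libraries, and a transcript entered with at least 200 counts in region b, at least 10 in region c and more in region c than in region d. Among 23175 transcripts with any count, 719 met the rule, and keeping 1 transcript of each set with identical region b and c counts in every library left 634. The other 312 distinct transcripts with the same minima had region c counts at or below those of region d. Region d had no minimum, so the 946 were chosen toward c and 634 of 946 is no general rate. Of the 12674 distinct transcripts passing the region b minimum alone, 54.5% had an empty region c and 39.2% an empty region d. Their medians were 0 in region c and 1 in region d.

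Stop codon readthrough is the decoding of a stop codon as an amino acid, so that the ribosome goes on to the next stop codon in frame and makes a protein with a longer carboxyl end. It is a known regulated process in mammals, and the astrocyte water channel Aqp4 is one of the brain proteins known to have such an extended form. In footprint data it is looked for as ribosomes just past a stop codon, set against the part of the 3′ untranslated region further on. The study behind these libraries dealt with alternative translation. The rule used here reads region b as the coding part, region c as the stretch just after it and region d as the part beyond that. The sources used here do not state what the letters stand for, so this reading was not tested, and "readthrough candidate" is the name of the rule, not a finding.

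The material was whole brain of C57BL/6J mice at postnatal day 21. Snap25::eGFP-RpL10a mice carry a GFP-tagged ribosomal protein under a neuronal driver, and Aldh1l1::eGFP-RpL10a mice carry it under an astrocyte driver. All 4 libraries were made from ribosomes captured by the tag, treated with cycloheximide and RNase I, so every group shares the tag and no library of untagged brain was used. There were 2 neuron and 2 astrocyte libraries, each from 2 pooled brains. Where 4 values are given in a row they stand for astrocyte 1, astrocyte 2, neuron 1 and neuron 2. Library totals ran from 7210269 to 12833187 counts. The files give Ensembl transcript IDs without gene names, and 0 of the 23175 IDs matched the gene tables at hand. The lists of known readthrough genes, selenoproteins, termination factors and cell type markers could therefore not be looked up, and the labelled cell types were not checked against their markers. The p-values below measure the spread between 2 pools per cell type. In such captured material more tagged cells and more footprints per cell cannot be told apart.

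By counts, region c was a minor region even among the candidates. The summed region c count had a median of 24 and ran from 10 to 4677. Counting error alone is wide at these depths. A count of 10 has an exact Poisson 95% interval of 4.80 to 18.4, and a count of 24 one of 15.4 to 35.7. Expressed against region b, region c had a median of 0.987% (quartiles 0.350% and 3.18%). It lay under 1% of region b in 322 candidates, from 1% to under 5% in 198, from 5% to under 10% in 56 and at 10% or more in 58. In 40 candidates it reached 10% in every single library, and in 2 it exceeded region b in every library. Beside this, the median over the 312 transcripts with c at or below d was 0.764%, and over all 12674 distinct transcripts with at least 200 region b counts it was 0, with no region c count at all in 54.5% of them. As the rule asked for at least 10 region c counts, the distance from transcripts at large is by construction.

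**Figure D1:**
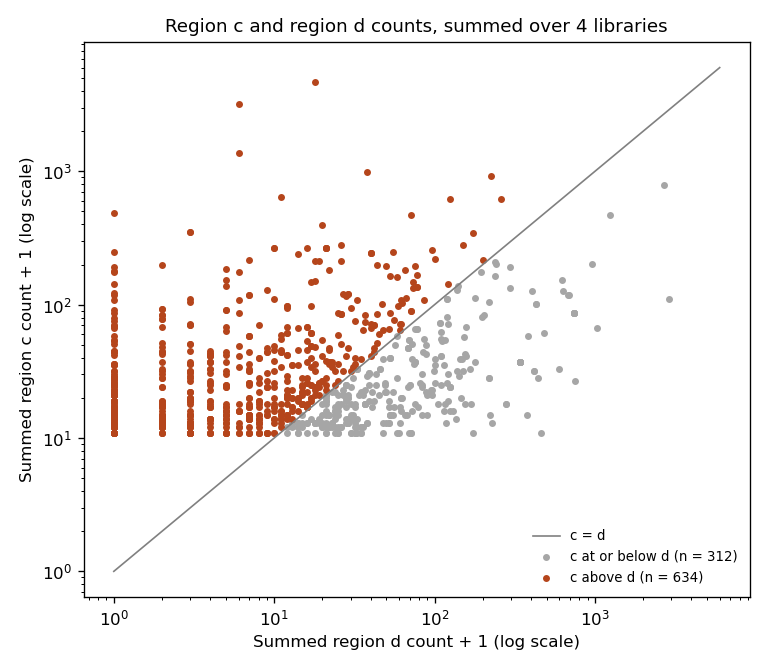
Summed region c count (y axis, plus 1, log scale) against summed region d count (x axis, plus 1, log scale) for the 946 distinct transcripts with at least 200 region b and 10 region c counts; each point is 1 transcript and the line marks c equal to d. The 634 candidates lie above the line by construction, 118 of them at 0 region d counts, and the highest reaches 4677 region c counts.

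Region d was empty in 118 of the 634 candidates in all 4 libraries. The strongest of these was ENSMUST00000108766, with 94, 103, 121 and 168 region c counts in the 4 libraries. Its 486 region c counts were 162-fold the 3 counts over the 4 libraries that a count of 0 allows. That limit covers counting error in region d only. Whether transcripts with an empty region d have a region d of any length was not known. ENSMUST00000174064, the candidate with the most region b counts (178501), also had no region d count and 249 in region c, 83-fold the same limit. Its region c was 0.139% of region b, so in this transcript an empty region d stood beside a low level of region c. In the 516 candidates with a region d count, c exceeded d by a median of 3.52-fold. These comparisons of c with d describe what the rule selected and carry no test.

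The rule fixed the excess of c over d in the sum of the 4 libraries, and with it much of the excess in single libraries, so the counts by library are a description only. Region c lay above region d in every library in 363 candidates, in 3 libraries in 174, in 2 in 81 and in 1 in 16. A region c count was present in all 4 libraries in 545 candidates, in 3 in 85 and in 2 in 4. The missing counts fell on astrocyte 1 in 34 candidates, neuron 1 in 24, astrocyte 2 in 19 and neuron 2, the deepest library, in 16. No length of region b, c or d was at hand, so counts were compared and not counts per base. The part of region length in the excess, and in region c as a percentage of region b, was not tested.

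**Figure D2:**
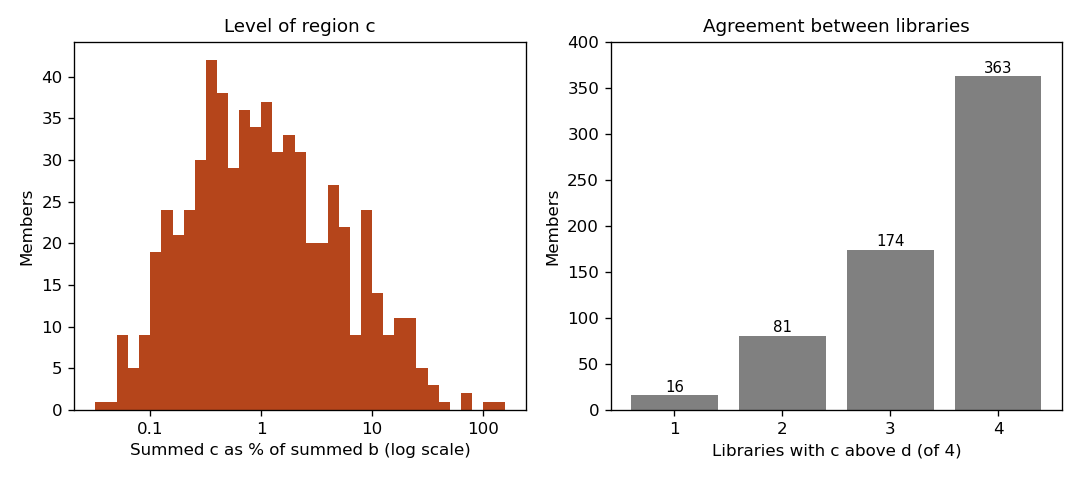
Left, number of candidates (y axis) by summed region c count as a percentage of summed region b count (x axis, log scale); right, number of candidates (y axis) by the number of libraries in which region c exceeded region d (x axis). The levels centre near 1% of region b, and 363 of the 634 candidates had c above d in all 4 libraries.

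A few candidates held much of the signal. The 12 with the highest region c counts took 37.9%, 34.5%, 36.0% and 31.3% of the candidates' region c counts. All candidates together held 52.9%, 54.9%, 51.2% and 49.7% of the region c counts of a library, and 4.54% to 5.26% of its region d counts, a contrast that the rule sets. These sums count a fragment again for each transcript it was assigned to.

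ENSMUST00000173041 had the most region c counts of all. It held 1480, 1643, 698 and 856 counts in region c beside 1096, 1269, 359 and 482 in region b. Region c was thus larger than region b in each library, and both regions were higher in the astrocyte libraries, although the astrocyte libraries were not the deepest. Region d held 17 counts in all. As a percentage of region b, region c measured 132% ± 3.93 in astrocyte and 186% ± 11.9 in neuron libraries (SD, n = 2 each), without overlap.

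ENSMUST00000114171 came next, with 643, 716, 885 and 975 region c counts and 5 region d counts in all. Its region c stood at 18.2% ± 0.0444 of region b in astrocyte and 17.9% ± 1.53 in neuron libraries (SD, n = 2 each), and the groups overlapped. It combined a high share with a high level of region b, 17945 counts. ENSMUST00000040548 resembled it at a lower share, with region c at 7.31%, 6.58%, 8.36% and 7.98% of region b, and again only 5 region d counts. ENSMUST00000077458 had 983 region c counts at 2.91% to 3.35% of region b, the lowest share among the 12.

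The remaining 8 of the 12 differed in their region d. ENSMUST00000160721 had 641 region c and 10 region d counts, ENSMUST00000170792 had 396 and 19, and ENSMUST00000107960 had 347 and 2. In ENSMUST00000108624 region d was well filled, with 224 counts beside 927 in region c. ENSMUST00000159693 had 624 and 259, ENSMUST00000102507 had 624 and 123, and ENSMUST00000125541 had 470 and 70. The last of the 8, ENSMUST00000108766, had no region d count. Counts of c against d thus placed transcripts with an almost empty region d beside transcripts with 224 or 259 counts there.

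**Figure D3:**
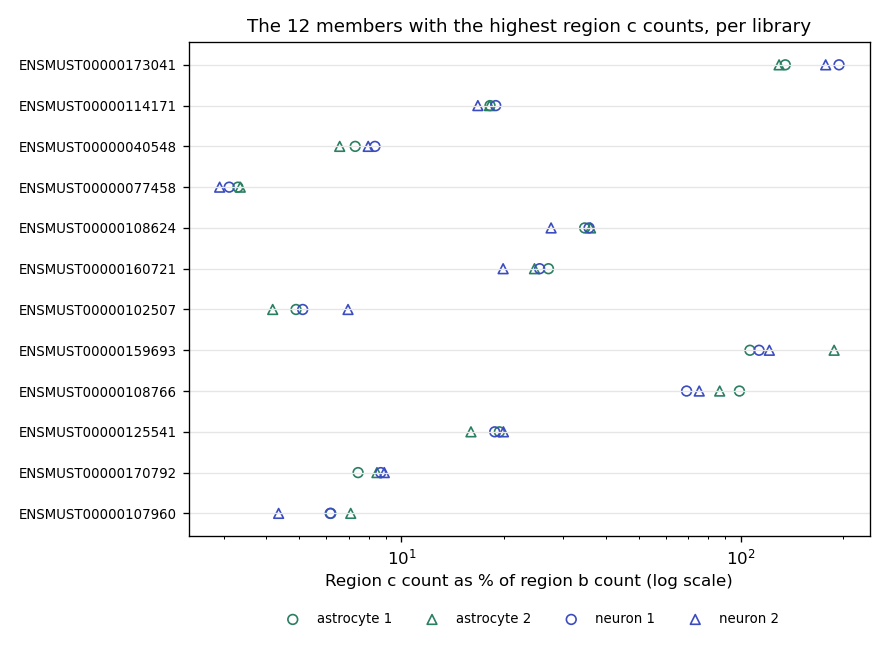
Region c count as a percentage of region b count (x axis, log scale) in each of the 4 libraries for the 12 candidates with the highest summed region c counts (y axis, transcript IDs); circles are replicate 1, triangles replicate 2, green astrocyte and blue neuron libraries. Within a transcript the 4 libraries lie close together compared with the distance between transcripts, which spans 2.91% to 194%.

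Ranked by level instead, among candidates with at least 20 region c counts, ENSMUST00000159693 followed ENSMUST00000173041 with region c at 106%, 188%, 113% and 121% of region b. This is the second candidate with region c above region b in every library, but it rests on 67 to 198 region b counts per library. ENSMUST00000108766 measured 98.9%, 86.6%, 69.1% and 75.3%. ENSMUST00000038281 measured 56.0%, 72.5%, 53.8% and 76.1%, so that its replicates differed more than its cell types. ENSMUST00000119847 and ENSMUST00000120620 followed at 39.9% and 38.6% of summed region b, with 0 and 1 region d counts. The other 6 of the 12 highest lay between 26.3% and 32.9%. All but ENSMUST00000173041 and ENSMUST00000108624 among these 12 had fewer than 1000 region b counts.

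Not all candidates are separate observations. The 634 candidates had 629 distinct profiles of region b counts over the 4 libraries but only 471 distinct profiles of region c counts. In 105 cases a region c profile was held by more than 1 candidate, 268 candidates in all, and 13 candidates shared the most widely held profile. ENSMUST00000118990 and ENSMUST00000119991, for example, both had 10, 17, 25 and 56 region c counts, with 402 and 410 region b counts. Of the 634 regions, 471 can thus be told apart by their counts. For 7 candidates a transcript with the same region b and c counts had region d counts at or above region c and so did not meet the rule.

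The opposite was rarer. In 19 candidates another transcript had exactly the same region b counts in every library but other region c counts, and for 9 of these such a transcript was no candidate. ENSMUST00000071081 held 36, 42, 42 and 92 region c counts, while ENSMUST00000166823, with the same 9782 region b counts, held 3 in all. ENSMUST00000038281 and ENSMUST00000184863 shared 423 region b counts and had 281 and 85 in region c. These pairs were chosen after their values were seen. In them the same region b counts went with different region c counts.

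The ranking of candidates by region c level was similar between libraries among those with 50 or more region c counts summed over the 4 libraries. Among the 158 candidates with at least 50 region c counts, Spearman rho of the c to b ratio was 0.950 between the astrocyte libraries, 0.971 between the neuron libraries and 0.932 to 0.952 between cell types. The candidates share libraries and some have the same region c counts, so these are descriptions without a test. The log2 differences had an SD of 0.617 between astrocyte replicates and 0.560 between neuron replicates, against 0.675 to 0.765 between cell types. Libraries of different cell types thus stood only a little further apart in region c level than replicates did.

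Whether the level of region c differed between neurons and astrocytes was tested as the ratio of c to b in one model over all transcripts with enough counts in both regions. Of 290 transcripts tested, 184 were candidates, with 154 distinct region c profiles, 18 were repeats of a candidate and 88 were others. The remaining 450 candidates had too few region c counts. No candidate passed: edgeR's quasi-likelihood test called 0 of the 184, and 0% of the 290 in all, at an adjusted p under 0.05, and DESeq2 also called 0. Before adjustment 25 candidates had an edgeR p under 0.05, 13 with a higher ratio in neuron and 12 in astrocyte libraries, and 20 of their region c profiles were distinct. Of all 290 transcripts 40, or 13.8%, had such a p with edgeR and 16 with DESeq2. The median log2 change (neuron over astrocyte) was -0.06 over the candidates and -0.01 over all tested, most of which are candidates. Over the tested transcripts that were not candidates, repeats included, it was 0.17, a difference that was not tested. Of the candidates, 83 lay above 0 and 101 below. The median standard error of a candidate was 0.361 on the log2 scale, so that small differences in region c level were not detectable at this depth.

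**Figure D4:**
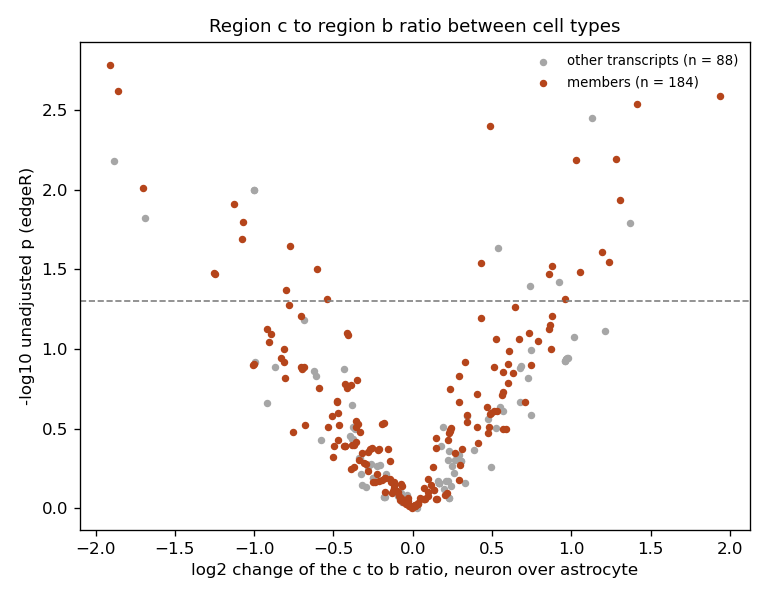
log2 change of the region c to region b ratio, neuron over astrocyte (x axis), against -log10 of the unadjusted edgeR p (y axis) for the 184 candidates and 88 other transcripts tested; each point is 1 transcript, repeats of a candidate are left out, and the dashed line marks an unadjusted p of 0.05. Points lie on both sides of 0, with 13 candidates above the line toward neuron and 12 toward astrocyte, and none passed after adjustment.

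The largest ratios toward neurons among the candidates were those of ENSMUST00000121705 and ENSMUST00000039909. ENSMUST00000121705 had 9, 15, 32 and 66 region c counts beside 121, 111, 65 and 191 in region b. Region c was 10.5% ± 4.30 of region b in astrocyte and 41.9% ± 10.4 in neuron libraries (SD, n = 2 each), a log2 change of 1.94 (SE 0.410, edgeR adjusted p = 0.139). ENSMUST00000039909 had 37, 39, 10 and 11 region c counts, that is 2.15% ± 0.151 and 5.74% ± 1.08 of region b (SD, n = 2 each), a log2 change of 1.42 (SE 0.306, edgeR adjusted p = 0.139). In both the groups did not overlap. Without overlap the neuron libraries lay above in 52 of the 184 candidates, beside 28.3% of all tested transcripts, and the astrocyte libraries in 41, beside 21.4%.

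At the other end stood ENSMUST00000149261 and ENSMUST00000025904, which had the same region c counts and so count once: 11, 13, 3 and 8. For ENSMUST00000149261 region c was 0.617% ± 0.0461 of region b in astrocyte and 0.157% ± 0.0209 in neuron libraries (SD, n = 2 each), a log2 change of -1.91 (SE 0.371, edgeR adjusted p = 0.139). The groups did not overlap, on few counts. Both transcripts passed the filter on region c through the astrocyte libraries alone, where region c was high. Their direction is thus partly set by the filter and is no support for a difference.

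The filter decided whether any ratio was called. When regions b and c each had to average 20 counts or more per library, a setting chosen after seeing the data, 148 transcripts were tested and edgeR called 5, all with a higher ratio in neuron libraries. These were ENSMUST00000121705, ENSMUST00000039909 with 2 repeats of it, and ENSMUST00000173041, whose log2 change was 0.49 (edgeR adjusted p = 0.0375, and 0.143 with the planned filter). In the other alternatives of this test the lowest adjusted p of any transcript lay between 0.132 and 0.889.

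Calls between the cell types were more frequent for region b of the candidates. The candidates' median standard error was 0.178 for region b and 0.361 for the ratio on the log2 scale. The tests thus differed in power, and the numbers of calls do not show which trait differed more often. All 634 candidates could be tested, among 18161 transcripts. With edgeR's quasi-likelihood test 44 candidates (6.94%) were higher in neuron libraries, where 3.49% of all tested transcripts were. Higher in astrocyte libraries were 105 candidates (16.6%), where 12.3% of all were. The 44 had 44 distinct region b but 34 distinct region c profiles, and the 105 had 102 and 84. Not all of these calls are thus separate observations. The candidates also had more region b counts than other transcripts, with a median of 2782.5 against 1028 over all distinct transcripts with at least 200, and the part of this in the shares called was not tested. Among the calls, 74 candidates were at least 2-fold and 42 at least 4-fold higher in astrocyte libraries. In neuron libraries 4 were at least 2-fold higher. Counts by fold size were not taken over all tested transcripts, so these sizes do not set the candidates apart. Calls over all tested transcripts also leaned toward astrocytes, with 2232 against 633 toward neurons. Over all 634 candidates, called or not, 363 had a log2 change above 0, that is higher in neuron libraries, and 271 below. Their median was 0.08 beside 0.03 over all tested transcripts, and 0.20 beside 0.16 when scaled by library totals alone. The sign count thus depends on scaling, and the share of all tested transcripts above 0 was not taken.

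Among the candidates called, ENSMUST00000039909 was lower in neuron libraries by the largest fold, with 1636, 1904, 201 and 169 region b counts. In CPM, region b counts scaled to a common library total, this was 231.6 ± 10.3 in astrocyte and 20.5 ± 10.4 in neuron libraries (SD, n = 2 each), a log2 change of -3.66 (SE 0.327, edgeR adjusted p = 0.000456). Its region c counts were also lower in the neuron libraries. ENSMUST00000034215 followed with 11905, 15135, 1585 and 1280 region b counts, a log2 change of -3.61 (SE 0.374, edgeR adjusted p = 0.000749). Its region c held 138, 175, 11 and 18 counts, that is 1.16%, 1.16%, 0.694% and 1.41% of region b. Region b itself differed over 10-fold between the groups. The c to b ratio of this transcript had a log2 change of -0.17 (SE 0.355). On so few region c counts in the neuron libraries, this does not show that the ratio was equal.

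Toward neurons, ENSMUST00000003754 had 1021, 1061, 2018 and 11614 region b counts, a log2 change of 1.97 (SE 0.445, edgeR adjusted p = 0.0215). The groups did not overlap, but the neuron libraries measured 279.9 and 905 CPM. Without neuron 2 the log2 change was 0.92, and DESeq2 gave an adjusted p of 0.0549. ENSMUST00000028727 had 9507, 9660, 18560 and 48417 region b counts, a log2 change of 1.19 (SE 0.226, edgeR adjusted p = 0.0104). With 1 library left out its log2 change ran from 0.92 (without neuron 2) to 1.42 (without neuron 1). Region c of these transcripts held 36 and 160 counts in all, 0.229% and 0.186% of region b.

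The number of region b calls depended on scaling, and it also moved when 1 library was left out. Such a fit keeps 1 library in a cell type, and the spread then comes from the other cell type alone. The numbers of calls of those fits therefore do not show the weight of a single library and are not compared. With library totals in place of TMM factors, which moved the median log2 change of all tested transcripts from 0.03 to 0.16, 78 candidates were higher in neuron libraries, so that 47.3% of the candidates' calls were toward neurons against 29.5% with TMM factors. In region b the neuron libraries differed more than the astrocyte libraries did, with an SD of log2 differences over the candidates of 0.406 against 0.168.

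Region a, which the rule did not use, was also better filled in the candidates than in transcripts at large. It had a median of 6.50% of region b in the candidates and 4.89% over all 12674 distinct transcripts with at least 200 region b counts, and it exceeded 10% of region b in 38.0% and 28.2% of them. The 312 transcripts with c at or below d had a median of 8.13% and 41.0% above 10%, so region a was above the median of all transcripts in both sets, which also had more region b counts. No region a count was found in 37 candidates (5.84%), and in 6.61% of all. The highest region a count of a candidate was the 16029 of ENSMUST00000034215, 53.6% of its region b.

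Close to the limits of the rule small counts decide. Just inside on region b were ENSMUST00000119891 and ENSMUST00000168665, with 205 and 220 region b counts, and just outside ENSMUST00000025762 and ENSMUST00000071878, with 196 each. Exactly 10 region c counts were held by 42 candidates, among them ENSMUST00000001566 and ENSMUST00000005185, while ENSMUST00000002923 and ENSMUST00000004140 stayed outside with 9. In 10 candidates region c exceeded region d by 1 count, as in ENSMUST00000007980 with 10 against 9 and ENSMUST00000013693 with 13 against 12. In 11 transcripts c equalled d, as in ENSMUST00000004378 and ENSMUST00000028553 with 20 each.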

How the data were processed

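Footprints were sequenced in 4 libraries, and the authors deposited whole-number counts per transcript region (letters a to d), with no normalization visible in the values; a region without a line was read as 0. The aligners STAR 2.3.1z8 and Bowtie2 2.2.2 are named in the submitters' processing notes, without their roles. Build, annotation, strand and the treatment of multiply matching fragments are likewise not stated there, so overlapping transcripts can share or split counts.

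The c to b ratio and the region b counts were tested over the whole table with edgeR 4.0.16 (quasi-likelihood F test, R 4.3.3), filterByExpr with a minimum count of 10 and Benjamini-Hochberg adjustment at 0.05. The ratio model had library and region as terms and tested the region effect between cell types, with the library total as offset for both regions. The region b model had TMM factors and cell type alone. DESeq2 1.42.0, other filters and scalings, a replicate block and leaving out each library were alternatives. For the ratio model, region d in place of region b was a further one. Standard errors are the absolute log2 change over the root of F. Intervals and the limit of 3 counts cover counting error only. Both models were tested on artificial counts with known answers. The members and lists were chosen with earlier results of these data known. Transcripts are named by rule: the 12 highest by region c count, the 12 highest by c as a percentage of b with at least 20 region c counts, 2 per direction of each test, and 2 at each limit; others were named after their values were seen.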

Additional observations from a re-analysis of the deposited data

How the results depend on the processing

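A minimum of 20 or 50 region c counts left 363 or 158 candidates, by construction, and raised the median of region c to 1.99% or 5.54% of region b. A minimum of 1000 region b counts left 477 candidates and lowered that median to 0.565%. With 1 library left out of the rule there were 477 to 543 candidates, and 458 to 529 of the candidates were kept. Their median of region c, still taken over all 4 libraries, was 1.11% to 1.19% of region b. The same minima on fewer libraries are stricter, so this median does not show the weight of a single library. Region c at least 2 times region d gave 481 sets, 479 of them with the same transcript, no merging gave 719, and merging on region c counts alone, chosen after seeing the data, 471. Calls of the c to b ratio stayed at 0 in 9 of 10 alternatives. Among these 9, 1 tested the ratio of region c to region d in its place, on 135 transcripts. The exception, an average of 20 counts or more in regions b and c, chosen after seeing the data, gave 5 calls, 3 of them candidates, on fewer transcripts. Region b calls toward neurons numbered 78 with library totals alone and 3 to 202 with 1 library left out. Those toward astrocytes numbered 74 to 205 with 1 library left out. There, the single library of a cell type takes its spread from the other cell type. The cause was not tested. None of the 149 candidates called for region b changed direction in the 9 alternatives, and 75 passed in every one of them. As the calls came from these same libraries, that direction was largely set by the choice.

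No label says that replicate numbers pair the libraries, and across transcripts the deviations of libraries with the same number had r = -0.0848. With the replicate block the c to b ratio gave 0 calls, with a lowest adjusted p of 0.290 (edgeR), and region b gave 139 calls among the candidates. Counts per base of regions b, c and d were not run, for lack of an annotation of these transcripts. Depth limits region c, which could be tested in 184 of 634 candidates.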

Other observations

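Region c counts also occurred where region b was nearly empty. Under the minimum of 200 region b counts, 100 distinct transcripts had at least 10 region c counts and more in c than in d. In 46 of these region c exceeded region b, and in 37 region b had no count at all. ENSMUST00000058407, chosen after its values were seen, had no count in regions a, b and d and 56, 51, 89 and 115 region c counts in astrocyte 1, astrocyte 2, neuron 1 and neuron 2. ENSMUST00000173004 had 262 region c counts beside 125 in region b and none in region d.

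Among transcripts with region c at or below region d, high levels of region c were found too. ENSMUST00000169034, chosen after its values were seen, held 787 region c counts, 25.5% of its 3082 region b counts, beside 2678 in region d. ENSMUST00000160342 held 471, 22.4% of region b, beside 1248 in region d.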
